A study of Schizosaccharomyces pombe with 2 samples.

Results

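The genes described here encode 5 factors of protein synthesis in the fission yeast Schizosaccharomyces pombe, namely tif11, tif1, eft201, eft202 and tef3. They are 5 of 5113 coding genes in the RefSeq annotation, taken by symbol. A gene's reads were those on its own strand from its start to 1000 nt past its end, stopping where another gene begins on that strand. The genes were selected on the read counts of these same libraries, so their values are a description and carry no test.

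Sequencing of poly(A) ends covered 1 library from cells whose seb1 gene is under the nmt1 promoter (nmt1-SEB1) and 1 library from wild-type cells, both made from total RNA. Both cultures grew in thiamine-containing minimal medium, and thiamine represses the nmt1 promoter. The sample labels write knock-out for the first strain, whereas the series design speaks of a knockdown, so the strain goes by its construct name here. The number of strain isolates and the time in thiamine are not stated in the labels, and no difference below has a replicate check.

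Seb1 binds RNA and the carboxy-terminal domain of RNA polymerase II, and it acts in poly(A) site selection and transcription termination in fission yeast. Each mRNA below has a stop codon followed by a 3′ untranslated region, and the place where the transcript is cleaved and polyadenylated sets how long that region is. Initiation factors bring the small ribosomal subunit to the start codon: eIF1A, encoded by tif11, sits in that subunit during scanning, and eIF4A, encoded by tif1, is the RNA helicase that unwinds the mRNA leader. In elongation, eEF2, the GTPase that moves the ribosome along by a codon, is encoded by both eft201 and eft202. eEF3, encoded by tef3, is an ATPase of fungi that helps spent tRNA leave the ribosome.

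The places where these transcripts ended, and the bases around them, are shown first, since the results turn on which place was used. The sequences were read 5′ to 3′ on the gene's strand from the RefSeq genome. The supplied assembly is named ASM294v3 and the submitters' notes name ASM294v2. The deposited ends matched it over the 27 blocks of the chromosomes tested, with an A directly after the end at no more than 1.55% of positions in any block. The last block of chromosome I held 115 positions and that of chromosome II only 4, too few to decide for the latter. The first 5 sequences lie downstream of the main wild-type site of each gene, and capitals mark TGTA. TGTA was chosen because its RNA form contains GUA, a core of the reported Seb1 binding motif.
tif11, after the site 265 nt past the stop codon: gtcattacttgctttTGTAagctggttcaa
tif1, after the site at 275 nt: tttactcttcttttgagcctcgTGTAgctg
eft201, from 25 nt after the site at 58 nt: cttgcgttaatttTGTAgcgttgattagct
eft202, after the site at 68 nt: ttttttggatgaccaaaTGTAattTGTAgt
tef3, after the site at 135 nt: cgactctaacatgtggtaacgtatgagttt
The next sequences end at the outermost site of tif1 and at the second site of eft201, and capitals mark the poly(A) signal AATAAA.
tif1, up to the site at 588 nt: gtAATAAAcaattctgctaggtaaaagtta
eft201, up to the site at 139 nt: gctaaaaaaatgtgaattAATAAActtaaa

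The tif11 stretch is chrII:3271992-3272021 on the minus strand and the tif1 stretches are chrI:5087017-5087046 and chrI:5087300-5087329 on the plus strand. The eft201 stretches are chrI:2907589-2907618 and chrI:2907562-2907591 on the minus strand. The eft202 stretch is chrIII:539923-539952 and the tef3 stretch chrIII:1688945-1688974, both on the plus strand. In the 100 nt after the site, on the transcript strand, TGTA began 16 nt away in tif11, 23 and 57 nt away in tif1, and 38 nt away in eft201. In eft202 it began at 18, 25, 40 and 55 nt, and the 100 nt after the tef3 site held none. Over both libraries the largest tif1 site lies at 469 nt, and there TGTA began 43 and 86 nt away. Of 3672 coding genes with 20 or more reads past the stop codon in each library, 63.1% held TGTA in the 100 nt after their largest site, so 4 of the genes share a feature of most genes. The letters GTA, which every TGTA contains, occurred 3 times after the tef3 site and in 90.7% of genes. AATAAA lay in the 50 nt before the tif1 sites at 275 and 588 nt, ending 27 and 22 nt upstream, and before the eft201 site at 139 nt, ending 6 nt upstream. Before the main sites of tif11, eft201, eft202 and tef3, and before the tif1 site at 469 nt, neither AATAAA nor AATGAA was found. These were present in 22.2% (AATAAA) and 10.6% (AATGAA) of genes before their largest site. A match is only a run of letters in this window.

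The nmt1-SEB1 library held 3376142 reads and the wild-type library 2702105. Levels are in RPM, the count scaled to a nuclear total of 1000000 reads, so that a single read equals 0.296 RPM in nmt1-SEB1, against 0.371 RPM in wild type. The targeted gene seb1 had 826 reads (245 RPM) in nmt1-SEB1, against 1848 reads (685 RPM) in wild type, a log2 ratio of -1.48. Over 4738 coding genes with 20 or more reads the median log2 ratio was 0.19. A call, higher or lower, needed a 2-fold ratio (2 or more, 0.5 or less) with a 95% interval that leaves out 1, where intervals cover counting error only. By this rule 25.6% of coding genes were higher and 17.0% lower in nmt1-SEB1. Scaling by TMM shifted all log2 ratios by -0.64 and median-of-ratios scaling by -0.68, which turned the split to 14.1% higher and 32.0% lower, and to 13.6% higher and 33.3% lower.

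Of the 5 genes, 3 were lower in nmt1-SEB1 by the RPM rule (tif11, tif1 and eft201), against a background of 17.0%, and 4 were lower by either other scaling, against 32.0% and 33.3%. Since the same contrast chose the genes, nothing is read from that share. Set against the coding median, which no scaling alters, the log2 ratio was -4.93 for tif11, -1.26 for tif1, -1.80 for eft201, -1.16 for eft202 and -0.24 for tef3. Together they had 32387 reads (9602 RPM) in nmt1-SEB1, against 33947 reads (12583 RPM) in wild type, and without tef3 the sums were 4877 reads (1446 RPM) in nmt1-SEB1, against 11173 reads (4141 RPM) in wild type. In these bulk libraries fewer cells making an RNA and less RNA per cell cannot be told apart.

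**Figure D1:**
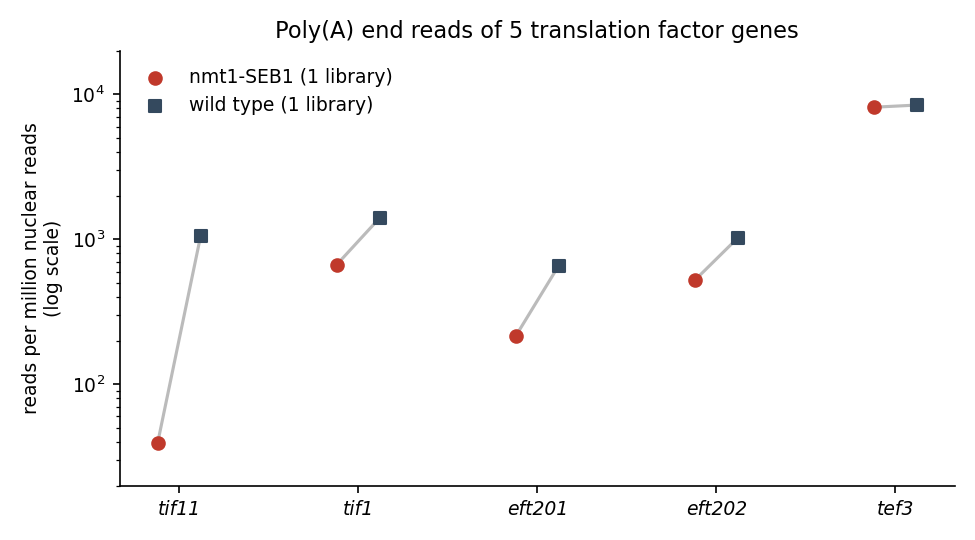
Level in RPM (log axis) of the 5 genes, with nmt1-SEB1 as red circles on the left and wild type as blue squares on the right of each pair, 1 library each and so without error bars. tif11 spans the widest gap (39.4 against 1054 RPM) and tef3 the narrowest (8156 against 8441 RPM).

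tif11 (SPBC25H2.07, chrII:3271874-3272716, minus strand, 1 exon) had 133 reads (39.4 RPM, exact Poisson 95% interval 33.0 to 46.7) in nmt1-SEB1. In wild type it had 2844 reads (1054 RPM, interval 1016 to 1094). The ratio was 0.0374 (95% interval 0.0312 to 0.0445), a 26.7-fold lower level in nmt1-SEB1 and a log2 ratio of -4.74. Ranked by reads among coding genes, tif11 stood at 2350 in nmt1-SEB1, against 153 in wild type.

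The remaining tif11 reads also ended at other places. The cluster around 265 nt took 41.4% of the reads downstream of the stop codon (55 reads) in nmt1-SEB1, against 94.8% (2695 reads) in wild type. A cluster gathers the reads within 24 nt of a peak position. A small cluster around 297 nt held 2 reads in nmt1-SEB1, against 111 in wild type, a ratio of 0.0144 (0.00172 to 0.0533). The cluster around 416 nt held 58 reads (17.2 RPM) in nmt1-SEB1, against 20 reads (7.41 RPM) in wild type, a ratio of 2.32 (95% interval 1.37 to 4.07). The sites at 265 nt, with a ratio of 0.0163 (0.0123 to 0.0213), and 297 nt were thus lower in nmt1-SEB1. The site at 416 nt was higher by RPM only. Scaling by TMM multiplies every ratio by 0.641 and median-of-ratios by 0.625. With either, the ratio at 416 nt falls under the 2-fold limit and its interval holds 1. The annotated 3′ untranslated region is 413 nt long, so the cluster around 416 nt lies at its end and the main wild-type site lies inside it. Beyond it, clusters around 517, 598 and 857 nt held 5, 7 and 3 reads in nmt1-SEB1, against 0 reads in wild type, where 3 counts would be 0.106% of the reads. The nmt1-SEB1 shares of tif11 rest on 133 reads and have wide intervals.

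tif1 (SPAC1006.07, chrI:5085530-5087031, plus strand, 1 exon) had 2256 reads (669 RPM, interval 642 to 697) in nmt1-SEB1, against 3791 reads (1405 RPM, interval 1361 to 1451) in wild type. The ratio was 0.476 (0.452 to 0.502) and the log2 ratio -1.07, just past the 2-fold limit. The window of tif1 ends 306 nt past the annotated end, where the non-coding RNA gene SPNCRNA.4296 starts on the same strand. That stretch up to 1000 nt held 441 reads in nmt1-SEB1, against 4 in wild type, and with the window drawn to the next coding gene the log2 ratio of tif1 was -0.81, which is not a call.

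The libraries differed site by site along the tif1 transcript. Its first large cluster, around 275 nt past the stop codon, had 127 reads (37.7 RPM) in nmt1-SEB1, against 2054 reads (761 RPM) in wild type, a ratio of 0.0495 (0.0410 to 0.0592). Around 344 nt there were 60 reads in nmt1-SEB1, against 343 in wild type, a ratio of 0.140 (0.105 to 0.184). At the cluster around 469 nt the libraries lay close, with 1237 reads (367 RPM) in nmt1-SEB1, against 1153 reads (427 RPM) in wild type, and a ratio of 0.858 (0.791 to 0.931). The outermost cluster, around 588 nt, had 699 reads (207 RPM) in nmt1-SEB1, against 1 read in wild type, a ratio of 559 (100 to 22114). Among these clusters, from the stop codon outwards, the ratio was lowest at the inner sites and highest at the outermost one. Smaller clusters around 113, 301, 377 and 427 nt had ratios of 0.0615, 0.0326, 0.253 and 1.06. The cluster around 588 nt is outermost within the window only. Its reads run to 595 nt and the window ends at 596 nt, so its extent and ratio depend on that cut. The site with AATAAA printed above for 588 nt held 31.0% of its reads in nmt1-SEB1, against 0.0264% in wild type.

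eft201 (SPAC513.01C, chrI:2907643-2910261, minus strand, 1 exon) had 726 reads (215 RPM, interval 200 to 231) in nmt1-SEB1, against 1777 reads (659 RPM, interval 628 to 690) in wild type. The ratio was 0.327 (0.299 to 0.356) and the log2 ratio -1.61. The cluster around 58 nt, the annotated end, held 54.4% of its reads (395) in nmt1-SEB1, against 98.4% (1748) in wild type. The cluster around 139 nt held 125 reads (37.1 RPM) in nmt1-SEB1, against 27 reads in wild type, a ratio of 3.70 (2.43 to 5.84).

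Further out, eft201 had ends that were seen in nmt1-SEB1 and not in wild type. The cluster around 331 nt held 142 reads in nmt1-SEB1, against 0 in wild type, which is at least 37.9-fold higher with wild type set to 3 counts (0.169% of its reads). Clusters around 167, 234 and 304 nt held 26, 14 and 19 reads in nmt1-SEB1, against 0 in wild type. Of the 142 reads, 115 ended at the single position 331 nt past the stop codon.

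eft202 (SPCP31B10.07, chrIII:537290-539922, plus strand, 1 exon) had 1762 reads (522 RPM, interval 498 to 547) in nmt1-SEB1, against 2761 reads (1023 RPM, interval 986 to 1062) in wild type. The ratio was 0.510 (0.481 to 0.542) and the log2 ratio -0.97, just short of the 2-fold limit. It was called lower with TMM (-1.61), with median-of-ratios (-1.65), and with reads counted to 200 nt past the gene end (-1.08). The cluster around 68 nt held 84.3% of its reads (1484) in nmt1-SEB1, against 99.6% (2750) in wild type, and the ratio of that cluster was 0.432 (0.405 to 0.460). Outer clusters around 177, 247 and 321 nt held 34, 100 and 113 reads in nmt1-SEB1 and 2, 4 and 1 in wild type.

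The pair of eEF2 genes can be told apart in these data. Their coding sequences, 2529 nt each, differ at 11 positions (99.6% identical). Past the stop codon only 27 of the first 70 nt were identical, with no shared run over 5 nt in that comparison. Over the first 100 nt, at any offset, the longest shared run was 7 nt. Between 99.9% and 100% of the reads of each gene lay past the stop codon, so the reads fell where the copies differ. Of the reads of the pair, eft202 gave 70.8% (Wilson 95% interval 69.0 to 72.6) in nmt1-SEB1, against 60.8% (59.4 to 62.3) in wild type. The summed eEF2 reads were 2488 in nmt1-SEB1, against 4538 in wild type, a ratio of 0.439 (0.417 to 0.461).

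tef3 (SPCC417.08, chrIII:1685645-1688951, plus strand, 1 exon) had 27510 reads (8156 RPM, interval 8060 to 8253) in nmt1-SEB1, against 22774 reads (8441 RPM, interval 8332 to 8552) in wild type. The ratio was 0.966 (0.949 to 0.983) and the log2 ratio -0.05. It ranked 7 among coding genes by reads in nmt1-SEB1, against 16 in wild type. A single cluster around 135 nt past the stop codon held 99.5% of its reads in nmt1-SEB1, against 98.7% in wild type.

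Inside that cluster the tef3 ends were spread differently. The position at 144 nt took 9419 reads (34.2%, Wilson interval 33.7 to 34.8) in nmt1-SEB1, against 1755 reads (7.71%, 7.37 to 8.06) in wild type. The position at 133 nt took 5530 reads (20.1%) in nmt1-SEB1, against 7303 (32.1%) in wild type, and the position at 135 nt took 9872 (35.9%) in nmt1-SEB1, against 11212 (49.2%) in wild type. The annotated end lies 142 nt past the stop codon, and 37.2% of tef3 reads lay 1 to 200 nt beyond it in nmt1-SEB1 against 8.13% in wild type. The small cluster around 86 nt, upstream of the main one, had 15 reads in nmt1-SEB1, against 276 in wild type, a ratio of 0.0435 (0.0240 to 0.0730).

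**Figure D2:**
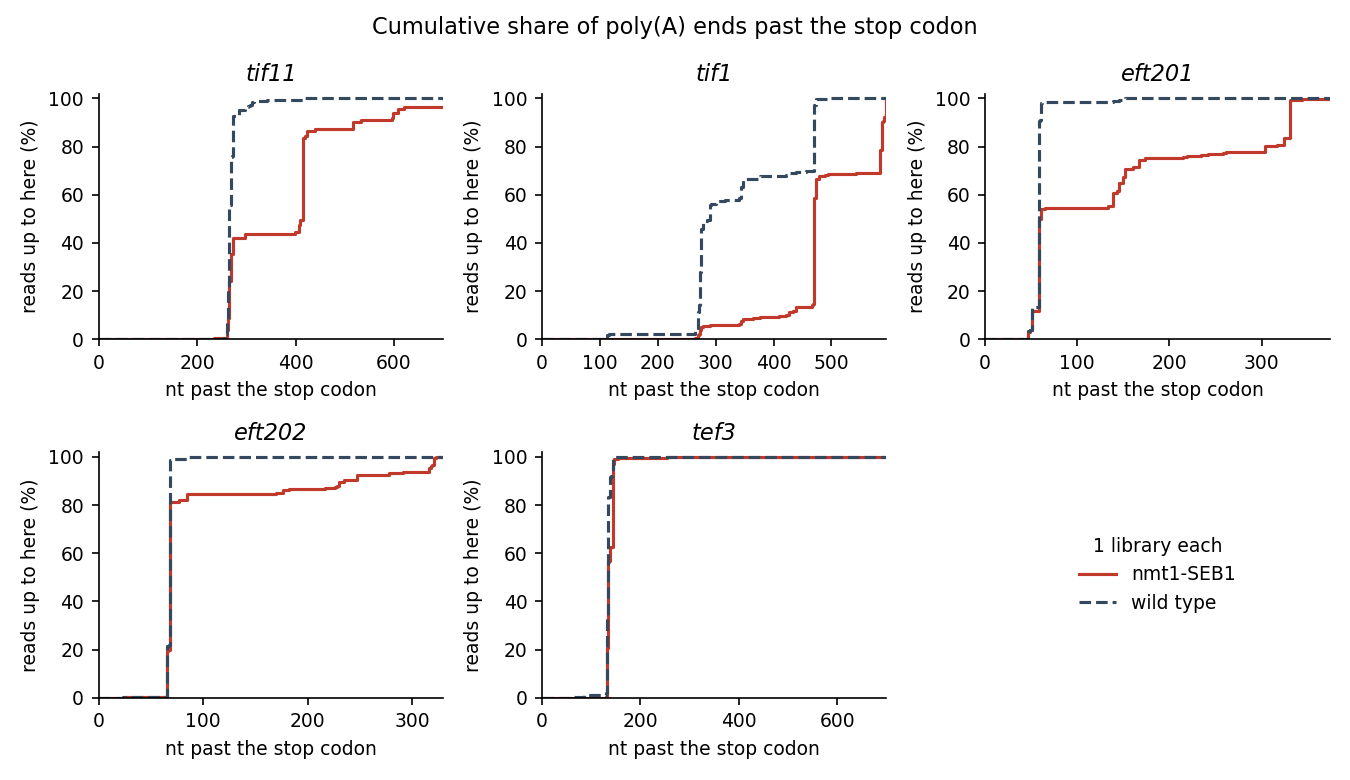
Cumulative share of reads (percent) against the distance of the poly(A) end past the stop codon (nt), for nmt1-SEB1 (solid red) and wild type (dashed blue), 1 library each. The red curve climbs later in tif11, tif1 and eft201, and in tef3 the curves nearly overlap because the move there spans 9 nt.

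The order of the 5 levels differed between the libraries. A read counts 1 transcript end whatever the gene's length, so these levels do not scale with length. In nmt1-SEB1 the order was tef3, tif1, eft202, eft201 and tif11, with no counting intervals that overlap. In wild type it was tef3, tif1, tif11, eft202 and eft201, where the intervals of tif11 (1016 to 1094 RPM) and eft202 (986 to 1062 RPM) overlap.

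Across the 5 genes, site use was compared as the share of the distal cluster among the reads of the pair of clusters with the highest share averaged over both libraries. For tif11 it was 51.3% (Wilson interval 42.2 to 60.3) in nmt1-SEB1, against 0.737% (0.477 to 1.14) in wild type, with the clusters around 265 and 416 nt as the pair. For tif1 it was 90.7% (89.0 to 92.1) in nmt1-SEB1, against 36.0% (34.3 to 37.6) in wild type, with the clusters around 275 and 469 nt as the pair. For eft201 it was 26.4% (22.9 to 30.3) in nmt1-SEB1 and 0 of 1748 reads in wild type, with the clusters around 58 and 331 nt as the pair. The eft201 cluster around 139 nt had more reads in all than the one around 331 nt but a lower mean share, and with clusters chosen on wild type alone the gap of eft201 was 22.5 points in place of 26.4. Between the first and last cluster with 5% of the reads, the gap was 11.3 points in place of 50.6 for tif11 and 84.6 points in place of 54.7 for tif1. These 3 genes, tif11, tif1 and eft201, had a higher distal share by at least 10 points with separate intervals, as did 63.5% of 2943 coding genes with a pair, and 0 had a lower one, against 3.13%. eft202 had 7.08% in nmt1-SEB1, against 0.0364% in wild type, a gap under 10 points, and tef3 had no second cluster with 5% of the reads. The median share over the coding genes was 65.3% in nmt1-SEB1, against 16.9% in wild type, so tif1 alone lay above that median in both libraries and the other 3 lay below it in both.

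In 4 of the 5 genes the nmt1-SEB1 mean end was 20 nt or more further downstream, as in 74.3% of 3672 coding genes, and in 0 of the 5 it was that far upstream, as in 2.83%. The mean distances were 380 nt in nmt1-SEB1, against 270 nt in wild type for tif11, and 489 nt in nmt1-SEB1, against 342 nt in wild type for tif1. For eft201 they were 141 nt in nmt1-SEB1, against 58.5 nt in wild type, and for eft202 98.2 nt in nmt1-SEB1, against 67.8 nt in wild type. For tef3 they were 139 nt in nmt1-SEB1, against 135 nt in wild type. The gap was thus widest for tif1 (148 nt) and narrowest for tef3 (4.32 nt), beside a median gap of 65.9 nt over coding genes. With reads counted to 200 nt past the gene end the gap of eft201 was 27.8 nt in place of 82.3 and that of eft202 13.3 nt in place of 30.4. By the median end in place of the mean, the gap was 3 nt for eft201 and 0 nt for eft202, since most of their reads lay at the first site in both libraries.

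As a measure of read-through, ends over 200 nt beyond the largest cluster made up 12.8% of tif11 reads in nmt1-SEB1, against 0.0703% in wild type. For eft201 they were 22.7% in nmt1-SEB1, against 0% in wild type, and for eft202 7.39% in nmt1-SEB1, against 0.0362% in wild type. For tef3 the share was 0.124% (34 reads) in nmt1-SEB1, against 0% in wild type, where 3 counts would be 0.0132%. The share was thus higher with separate intervals in 4 of the 5 genes, as in 40.8% of 3672 coding genes. Both totals keep genes whose window is too short for such a read. tif1 could give no such read, since its window ends 596 nt past the stop codon and its largest cluster lies at 469 nt. The windows of the others end 1062 nt (tif11), 903 nt (tef3), 486 nt (eft201) and 340 nt (eft202) past the stop codon. Their shares therefore cover unlike lengths, only 72 nt for eft202, and do not rank the genes. Past the eft202 window, up to 1000 nt past its end, lay 135 further reads in nmt1-SEB1, against 0 in wild type.

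**Figure D3:**
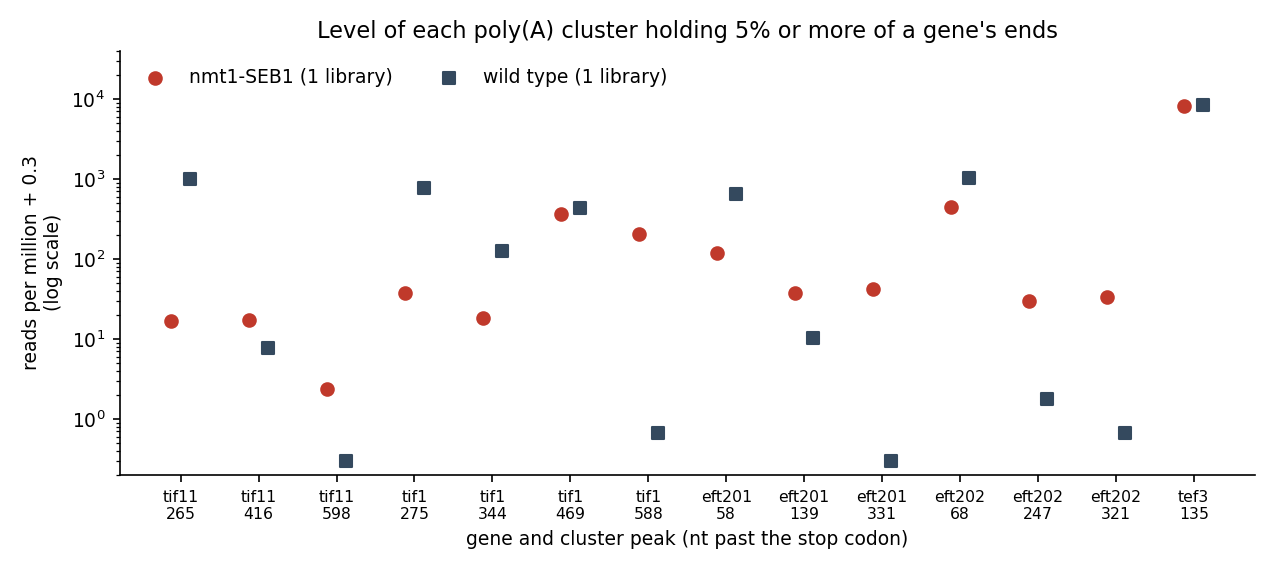
Level of each cluster that held 5% or more of a gene's reads in at least 1 library, as RPM with 0.3 added (log axis), with nmt1-SEB1 as red circles left of wild type as blue squares and the distance past the stop codon in nt under each gene name. In tif11, tif1, eft201 and eft202 the innermost cluster is lower in nmt1-SEB1, and the outermost lies above its wild-type point, which in tif11 rests on 7 reads against 0.

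In wild type, 4 of the genes ended at a narrow place. The cluster with the largest share averaged over both libraries held 94.8% of wild-type reads for tif11, 98.4% for eft201, 99.6% for eft202 and 98.7% for tef3. By the same rule the median over 3672 coding genes was 72.4%. In these 4 genes that cluster was also the largest in wild type. Where it is not, as in tif1, the rule gives less than the largest wild-type share, which can lower the median. tif1 had 54.2% in its largest wild-type cluster, around 275 nt, and 30.4% in the one around 469 nt, which was largest over both libraries. Narrow ends were found both in the gene with the lowest ratio, tif11, and in the one with the ratio nearest 1, tef3.

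Reads of neighbouring genes were counted in the same way, up to 1000 nt past the gene end, unless the gene body is named. Downstream of eft202 the non-coding gene SPNCRNA.6898 held 127 reads in its body in nmt1-SEB1, against 0 in wild type, at least 33.9-fold higher with wild type set to 3 counts. It starts 272 nt past the annotated end of eft202 on the same strand. Reads on the strand opposite eft202 numbered 249 over its body in nmt1-SEB1, against 1 in wild type, and rpl35A01, a ribosomal protein gene transcribed towards eft202, had 1852 reads in nmt1-SEB1, against 2309 in wild type (971 in its body in nmt1-SEB1, against 2205 in wild type). Opposite the body of tef3 there were 0 reads in either library, and opposite eft201 there were 6 in nmt1-SEB1, against 0 in wild type.

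Both eEF2 genes lie beside a tricalbin gene, a family of proteins that tether the endoplasmic reticulum to the plasma membrane. tcb3, whose start lies 428 nt past the end of eft201 on the same strand, had 765 reads in nmt1-SEB1, against 263 in wild type (log2 ratio 1.22). tcb2, which ends 87 nt before the start of eft202 on the same strand, had 77 reads in nmt1-SEB1, against 156 in wild type (log2 ratio -1.34). Next to tif11, the vesicle protein gene hrf1 had 109 reads in nmt1-SEB1, against 53 in wild type (52 in its body in nmt1-SEB1, against 53 in wild type), and the magnesium transporter gene mrs2 had 20 in nmt1-SEB1, against 14 in wild type. The antisense RNA gene SPNCRNA.6045, which overlaps tif11, had 11 reads in nmt1-SEB1, against 1 in wild type. At tif1, rgf2 upstream had 71 reads in nmt1-SEB1, against 41 in wild type, and etd1 downstream had 16 in nmt1-SEB1, against 8 in wild type. Scaled to RPM, the ratios were 1.39 (0.930 to 2.09) for rgf2 and 1.60 (0.646 to 4.32) for etd1. With hrf1 (1.64) and mrs2 (1.14), these genes passed neither limit, whereas the other neighbours in this paragraph passed one. SPNCRNA.4295, on the opposite strand past the end of tif1, had 35 reads in nmt1-SEB1, against 4 in wild type, and SPNCRNA.4292, upstream on that strand, had 25 in nmt1-SEB1, against 0 in wild type, all of them past its end and 0 in its body. Upstream of eft201, SPAC513.02 had 76 reads in nmt1-SEB1, against 29 in wild type. Beside tef3, mto1 had 14 reads in nmt1-SEB1, against 31 in wild type, and SPCC417.09C had 107 in nmt1-SEB1, against 21 in wild type.

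The other translation factors were taken by their RefSeq product text, 53 genes besides the 5, which include 14 organellar factors, enzymes and binding proteins. Among the 53, 52 had 20 or more reads. Of these, 10 (19.2%) were higher and 12 (23.1%) lower in nmt1-SEB1 and 30 were neither, beside 25.6% higher and 17.0% lower over all coding genes, with a median log2 ratio of 0.15 beside 0.19 for all coding genes. With TMM or median-of-ratios scaling 8 (15.4%) were higher and 17 (32.7%) lower, near the coding shares of 14.1% and 13.6% higher and 32.0% and 33.3% lower. Among 36 initiation genes 6 were higher and 8 lower, among 10 elongation genes 2 and 2, and among 6 termination genes 2 and 2, to be read against the same 25.6% higher and 17.0% lower. The ratio of tif11 was lower than that of each of these 52 genes, while tif1 and eft201 lay among the other lower ones.

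**Figure D4:**
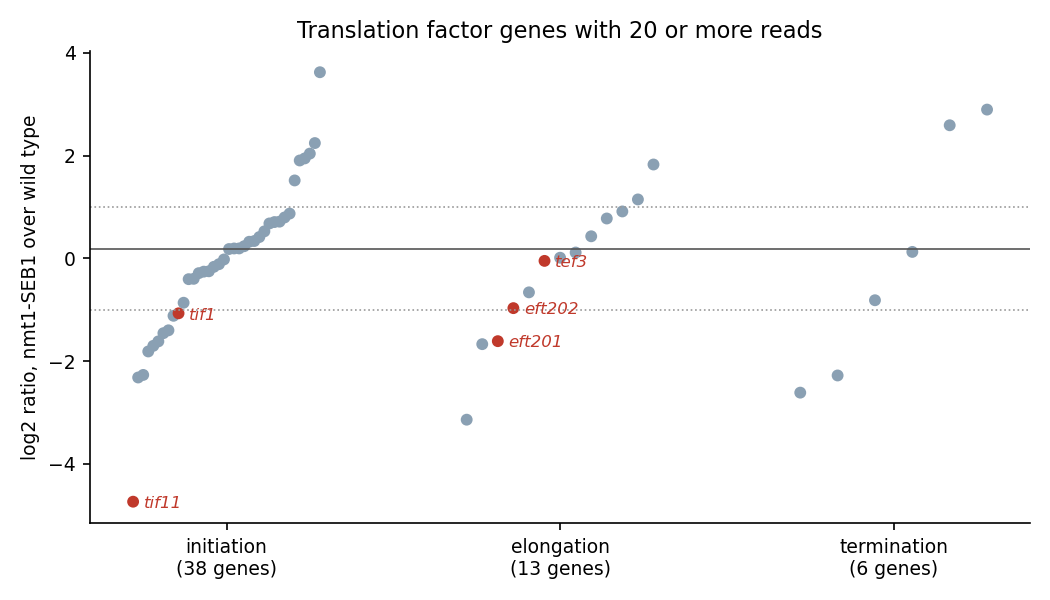
Log2 ratio of nmt1-SEB1 over wild type for 57 translation factor genes with 20 or more reads, sorted within each role, with the 5 genes in red, the others in grey-blue, the coding median (0.19) as a solid line and the 2-fold limits as dotted lines. tif11 is the lowest point, and tef3, eft202 and eft201 lie between the highest and lowest elongation genes.

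Other initiation genes were called in both directions. tif211, the alpha subunit of the tRNA-carrying factor eIF2, had 1271 reads in nmt1-SEB1, against 5080 in wild type (log2 ratio -2.32), and moe1, the d subunit of eIF3, had 374 in nmt1-SEB1, against 1444 in wild type (-2.27). tif471, the eIF4G scaffold that binds the tif1 product, had 416 reads in nmt1-SEB1, against 1170 in wild type (-1.81). At the other end, gcn3, the alpha subunit of the exchange factor eIF2B, had 2623 reads in nmt1-SEB1, against 170 in wild type (3.63). gcn2, an eIF2 alpha kinase, had 249 in nmt1-SEB1, against 42 in wild type (2.25), and tif308, the h subunit of eIF3, had 1229 in nmt1-SEB1, against 255 in wild type (1.95). Of the gcn2 reads, 83.9% lay past the stop codon in nmt1-SEB1, against 47.6% in wild type. By those reads alone the log2 ratio of gcn2 was 3.06.

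Among elongation genes, tef5, the beta subunit of the exchange factor eEF1B, had 620 reads in nmt1-SEB1, against 4381 in wild type (-3.14). The 3 genes of eEF1A, which brings aminoacyl-tRNA to the ribosome, had log2 ratios from -0.66 to 0.11: tef101 had 2431 reads in nmt1-SEB1, against 3078 in wild type (-0.66), tef102 had 3003 in nmt1-SEB1, against 2382 in wild type (0.01), and tef103 had 11151 in nmt1-SEB1, against 8248 in wild type (0.11). The pair of eIF5A genes split, with 1949 reads in nmt1-SEB1, against 4967 in wild type for tif512 (-1.67) and 12201 in nmt1-SEB1, against 2749 in wild type for tif51 (1.83). SPAC29A4.02C, the eEF1B gamma subunit, had 1336 reads in nmt1-SEB1, against 624 in wild type (0.78), and tuf1, the organellar EF-Tu, had 2847 in nmt1-SEB1, against 1209 in wild type (0.91). The gene tif1102, annotated as eIF1A-like and not as eIF1A, had 189 reads in nmt1-SEB1, against 105 in wild type. Summed, tif11 and tif1102 had 322 reads in nmt1-SEB1, against 2949 in wild type, a ratio of 0.0873.

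In termination, the release factor genes sup35 and erf1 were lower, with 878 reads in nmt1-SEB1, against 4306 in wild type (-2.62), and with 714 in nmt1-SEB1, against 2777 in wild type (-2.28). mtq2, the eRF1 methyltransferase, had 177 reads in nmt1-SEB1, against 19 in wild type (2.90), and dom34, an eRF1 family protein, had 98 in nmt1-SEB1, against 13 in wild type (2.59). Of the dom34 reads, 98.0% lay past the stop codon in nmt1-SEB1, against 61.5% in wild type, and by those alone its log2 ratio was 3.26. rrf1 (71 reads in nmt1-SEB1, 100 in wild type) and hbs1 (60 in nmt1-SEB1, 44 in wild type) passed neither limit. For hbs1, 88.3% of the reads lay past the stop codon in nmt1-SEB1, against 29.5% in wild type. By those reads alone its log2 ratio was 1.71, a call of higher. In the use of poly(A) sites, of 38 other factors with a pair of clusters, 30 had a higher distal share in nmt1-SEB1 and 1, erf1, a lower one, beside 63.5% and 3.13% of coding genes. Of 46 measured, 33 had a mean end 20 nt or more further downstream and 0 further upstream, beside 74.3% and 2.83% of coding genes.

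The coding genes most like each gene were sought by the distance between points of log2 ratio and log2 wild-type RPM, over these 2 libraries and 3611 genes. For tif11 they were the zinc transporter gene zrt1 (126 reads in nmt1-SEB1, 3693 in wild type, distance 0.591) and the ribosomal protein gene rpl2702 (248 in nmt1-SEB1, 3502 in wild type, distance 0.670). The points nearest to tif1 were the ribosomal protein genes rpl2002 (distance 0.221) and rpl2301 (0.242), and those nearest to eft201 were rps102 (0.141) and seb1 itself (0.141). hsp90 lay nearest to eft202 (0.0268) with 1808 reads in nmt1-SEB1, against 2790 in wild type, followed by SPBC29A3.21 (0.146). The aldolase gene fba1 (29508 reads in nmt1-SEB1, against 24852 in wild type, distance 0.128) lay nearest to tef3, followed by the phospholipase gene plb1 (0.326).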

How the data were processed

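Polyadenylated ends of total RNA were measured in 1 nmt1-SEB1 and 1 wild-type library of Schizosaccharomyces pombe. The deposited values are counts: per the labels' protocols and the values, the files the authors made list, per position and strand, how many poly(A) site-supporting (PASS) reads ended there, without normalization. Reads were aligned with Bowtie2 to ASM294v2, per the submitters' processing notes. No molecular identifiers are named, so PCR copies count as reads, and intervals and floors (3 counts) cover counting error only. Aligned bases of the tail that match genomic A cannot be separated, which can place an end downstream of its cleavage site.

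Positions were checked to count from 1: at positions with 3 or more reads the base was A in 82.9% to 87.0%, and the following base in 0% to 2.01%.

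RPM used the 3373116 (nmt1-SEB1) and 2697953 (wild type) nuclear reads. Ratios carry exact conditional binomial and shares Wilson 95% intervals. With 1 library per group, no test was run. Clusters gathered positions within 24 nt of the largest remaining peak; the pair was the 2 with the largest mean share, and needed 5% of the reads in 1 library and 20 reads in each. Alternatives covered scaling (TMM from edgeR 4.0.16, median-of-ratios from DESeq2 1.42.0), windows, cluster width and site choice. Python 3.11.15, pandas 2.3.3 and SciPy 1.17.1 were used, and the scripts were tested on simulated data. Named genes were the 5 genes, seb1, the nearest neighbours with 20 or more reads, the 2 most alike genes per gene, and, per role, the 3 highest and 3 lowest factors with 100 or more reads, plus the eEF1A genes. Neighbours and paralogs outside these rules (SPNCRNA.6045, tif1102) were named after their values were seen. The members and lists were chosen with earlier results of these data known.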

Additional observations from a re-analysis of the deposited data

How the results depend on the processing

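Of 98 alternative values, 87 were held to be the same. For these, a gene kept its direction and side of the limit, or a count of genes changed by 1.5 times at most. Of the rest, 4 lost a call, 5 gained one, 2 counts moved by over 1.5 times and 0 reversed. tif1 was not called lower with the next coding gene as its downstream limit (log2 ratio -0.81). eft202 was called lower with TMM (-1.61), median-of-ratios (-1.65) and a limit of 200 nt (-1.08). By the median end, the gap of eft201 was 3 nt and that of eft202 0 nt, so 2 of the 5 genes passed 20 nt in place of 4. With a limit of 200 nt the gap of eft202 was 13.3 nt, and that of eft201 27.8 nt. With the first and last clusters as the pair, the distal gap was 11.3 points for tif11 and 84.6 points for tif1. Read-through of tif1 became measurable, at 31.0 points between the libraries beyond 100 nt and 33.1 points with the largest wild-type cluster as its base. Leaving out the 14 organellar factors, enzymes and binding proteins, a choice made after seeing the data, left 39 other factors. Of the 39, 5 (12.8%) were higher and 9 (23.1%) lower, in place of 10 (19.2%) and 12 (23.1%) of 52. The coding shares were 25.6% higher and 17.0% lower. Assigning each read to 1 gene and shifting windows by 1 nt changed no count of the 5 genes. Clusters chosen on wild type alone left no pair for tif11 and eft202. No paired analysis was possible because each group has 1 library, and no replicate could be left out. Depth limits tif11 most, with 133 reads in nmt1-SEB1, and wild-type counts of 0 allow up to 3 reads.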
